A study of Mus musculus with 8 samples.

Results

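The mitochondrial carriers of the SLC25 family were examined in sorted haematopoietic stem cells (HSCs), which maintain themselves for life and supply every blood lineage. Members were the entries of the deposited expression table whose symbol is Slc25a followed by a number. They were 37 of 11854 named entries, and no measured value entered the choice. Mouse GENCODE M21 holds 47 protein-coding genes of that name, so 10 of them, among them Slc25a31, Slc25a21 and Slc25a30, were not analysed here.

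The HSCs came from the bone marrow of 4 wild type and 4 Nupr1-/- mice of strain C57BL/6, and polyadenylated RNA was sequenced, 1 library for each mouse. Nupr1 encodes a stress-induced regulator found in the nucleus, and the series title names HSC quiescence and p53 signalling. The labels give no age, no sex, no sorting gate and no design of the Nupr1 allele. Libraries are numbered 1 to 4 in each group as in the labels, and every list of values follows that order.

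SLC25 proteins sit in the inner mitochondrial membrane, with a few exceptions in the outer membrane or in peroxisomes. Each swaps or carries a small molecule that the lipid bilayer would otherwise hold back: ADP against ATP, phosphate, citrate, malate, aspartate, amino acids, iron, glutathione, folate or NAD. They therefore link respiration, heme and iron-sulfur cluster synthesis and the shuttling of reducing power between cytosol and mitochondrion. Resting HSCs are known for low mitochondrial activity, with respiration rising as they enter cycle.

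The libraries held between 2296101 and 4769401 reads assigned to genes, and the values used are normalised reads, meaning reads divided by 1 size factor per library. Nupr1 itself did not separate the groups, at 285, 134, 245 and 318 in the wild type against 179, 173, 201 and 119 in the labelled knockout libraries (adjusted p = 0.433, limma), so the second group is called by its label throughout. All 16 HSC markers looked for had reads in every library, among them Procr, Hlf, Mecom and Slamf1. Procr, Hlf and Mecom leaned lower in the libraries labelled knockout, with log2 differences of -0.55, -0.46 and -0.79. None of these passed (adjusted p = 0.167, 0.191 and 0.105, limma). Of the 16, 9 lay above 0, and 5 had an unadjusted p under 0.05 in limma, against 19.7% of all genes. Eng was higher and Mllt3 lower in the libraries labelled knockout (adjusted p = 0.0305 and 0.0440, limma), while 3.8% of all genes passed. Eng and Mllt3 each passed in 1 of the 8 fits that leave out 1 library. Neither passed in limma with the trend of GC content and length removed (adjusted p = 0.433 and 0.648). Of the markers of other cells, 2 of 15 for neutrophils and monocytes, 4 of 16 for lymphoid cells and 5 of 12 for stroma and endothelium were in the table, and 0 of those tested passed. The summed level was 2573 to 5541 normalised reads in the wild type and 2240 to 3675 in the labelled knockout libraries for neutrophils and monocytes (Prtn3 and Lyz2). It was 241 to 1168 and 315 to 369 for lymphoid cells, and 505 to 957 and 406 to 557 for stroma and endothelium. Xist, the RNA that coats the inactive X chromosome, had 0, 11.8, 0 and 0 in the wild type against 122, 107, 113 and 159 in the labelled knockout libraries (log2 6.05, adjusted p = 0.00812, limma). The labels give no sex, and for every difference between the groups, carriers and other genes alike, sex and genotype cannot be told apart.

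On the first principal component (25.6% of the variance) wild type library 2 lay far off, at -126.5 against 0.8 to 36.9 for the rest. On the second (22.4%) it lay at -21.8, near the libraries labelled knockout (-61.3 to -24.1). The other wild type libraries lay at 45.7 to 67.3 there. Wild type library 2 gave the highest or the lowest wild type value for 28 of the 37 carriers (75.7%), against 61.5% over all genes.

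The 3 carriers of the phosphorylation system made up most of the family's transcripts in HSCs. Levels of different genes were compared per length, as TPM, the share of transcripts after division by length, over the 11716 genes with an annotated exon length. Slc25a5, an ADP/ATP carrier that exports new ATP, stood first at 1309 ± 392 TPM in wild type libraries (SD, n = 4). Slc25a3, the carrier that imports phosphate, followed at 529 ± 75.1 TPM. Slc25a4, the second ADP/ATP carrier and the main one of heart and muscle, was at 419 ± 38.5 TPM. Together they held 63.4 ± 2.62% of the TPM of the 37 members in wild type libraries and 63.1 ± 1.10% in those labelled knockout.

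Among the 37 members, the next places over the 8 libraries went to carriers of carbon skeletons and glutathione. Slc25a11, which swaps oxoglutarate for malate in the malate-aspartate shuttle, averaged 333 TPM. Slc25a39, a glutathione importer, averaged 189 TPM, and Slc25a1, which exports citrate to feed fatty acid and sterol synthesis, 123 TPM. Slc25a45 was at 117, the NAD carrier Slc25a51 at 94.4 and the iron importer Slc25a28 (mitoferrin 2) at 70.3 TPM. In all, 7 carriers averaged over 100 TPM, 18 between 10 and 100 and 12 under 10. Of the 37, 20 lay above the median of all genes with a length, 21.2 TPM.

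The order of neighbours was mostly within the spread of the libraries. Slc25a5 exceeded Slc25a3 in 8 of 8 libraries, by 1.37 ± 0.34 on the log2 scale, and this was the only pair of neighbours in the order whose ranges over the 8 libraries did not overlap. Slc25a3 exceeded Slc25a4 in 8 of 8 libraries and Slc25a4 exceeded Slc25a11 in 6 of 8, with overlapping ranges. With the length of the longest transcript in place of all merged exons, 9 of the 10 highest carriers were the same, and the 2 orders had a rank correlation of 0.97 across the members, which share their libraries and reads.

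**Figure D1:**
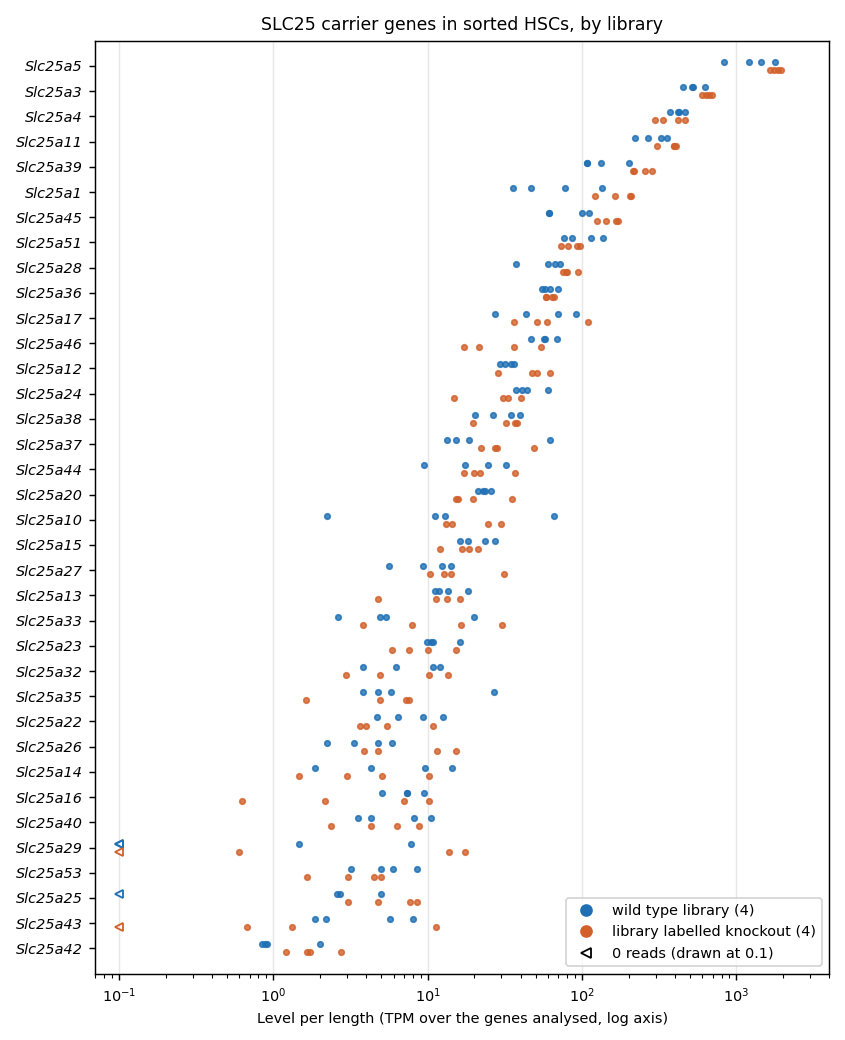
Level of 36 of the 37 carriers in every library, in TPM on a log axis, ordered by the mean over 8 libraries, with wild type libraries in blue and those labelled knockout in orange; open triangles at the left edge mark 0 reads. Slc25a5, Slc25a3 and Slc25a4 lead the order, Slc25a42 is lowest, and the spread between libraries widens towards the bottom.

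At the low end stood carriers with few reads. Slc25a42, a coenzyme A carrier, was lowest at 1.50 TPM, with 6.96, 5.91, 6.98 and 16.6 in the wild type against 8.75, 12.5, 13.3 and 19.4 in the labelled knockout libraries. Slc25a43 followed at 3.88 TPM, with 18.8, 11.8, 4.99 and 4.53 in the wild type against 1.46, 0, 25.6 and 2.78 in the labelled knockout libraries. It had 83 reads over the 8 libraries, the fewest of the family, and wild type and labelled knockout values overlapped for both genes.

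Slc25a25, a calcium-regulated ATP-Mg/phosphate carrier, was the third lowest at 4.28 TPM, with 27.9, 0, 49.9 and 28.0 in the wild type against 45.2, 29.9, 76.9 and 79.6 in the labelled knockout libraries. The 0 in wild type library 2 allows up to 3 reads, or 2.96 normalised reads, for counting error only. Values of 0 also occurred in Slc25a29 (3 libraries) and Slc25a43 (1 library). The median coefficient of variation among wild type libraries was 24.6% for carriers over 100 TPM and 49.7% for those under 10 TPM.

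Between the groups, Slc25a1 and Slc25a39 rose in the libraries labelled knockout by the main limma test, which called no carrier lower. Of 37 carriers, 35 passed the filter (4 or more libraries with a value of 10 or higher) and were tested with limma on log2(value + 1), adjusted over all 10989 genes tested. The 2 called carriers are 5.71% of those tested, against 3.8% of all genes called (418 genes). Both were higher, against 1.68% of all genes called higher, and 0 carriers were lower, against 2.12% of all genes called lower. At an unadjusted p under 0.05 there were 5 of 35 carriers (14.3%) against 19.7% of all genes, so by either rule the family's share lay near the background.

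By its median the family as a whole was little displaced, while its summed level was higher in the libraries labelled knockout. The median log2 difference of the 35 carriers was 0.11, with 19 above 0 and 16 below, beside a median of 0.03 over all genes. Its sign was not firm, at -0.10 without wild type library 4 and -0.0027 without library 1 labelled knockout. The median size of the difference, sign aside, was 0.46 for the carriers and 0.49 for all genes. Differences ran from -1.14 for Slc25a16 to 1.93 for Slc25a25, both carriers of few reads and neither called. The family's summed level was 3553 ± 551 TPM in wild type libraries and 4488 ± 272 in those labelled knockout, and Slc25a5 alone gave the largest part of it. These sums overlapped, with 4230 TPM in wild type library 2 against 4203 in library 4 labelled knockout. In normalised reads the sums did not overlap, at 13121 to 14788 in wild type libraries and 14915 to 17915 in those labelled knockout.

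**Figure D2:**
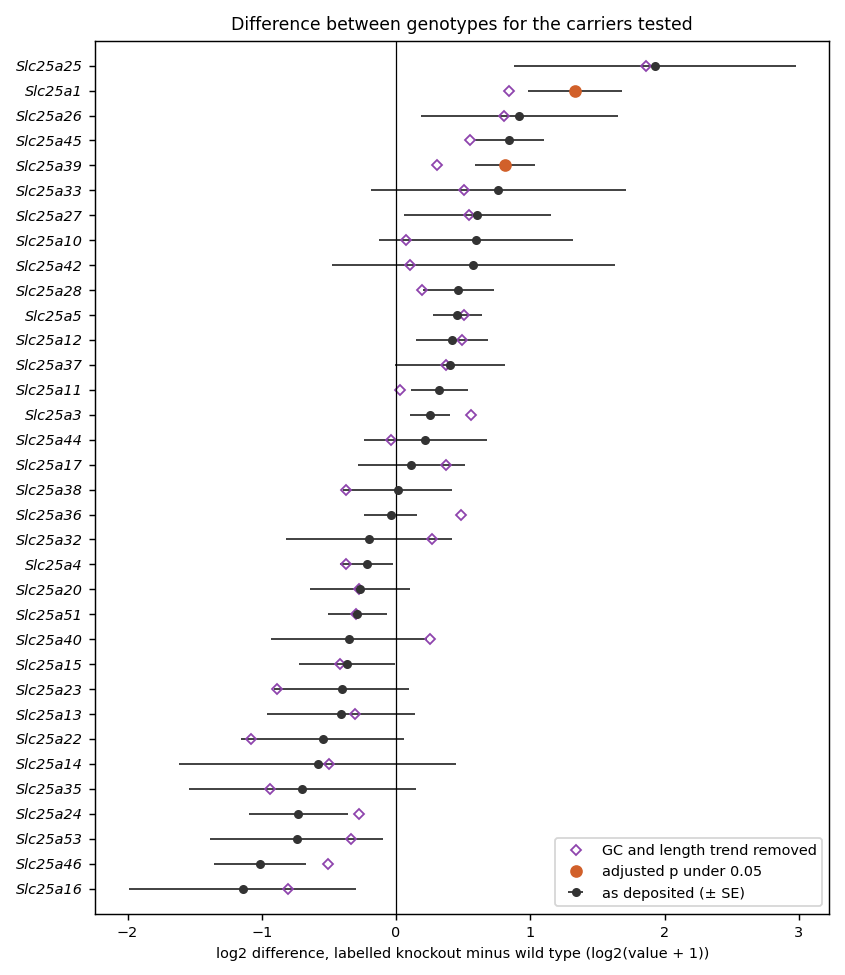
Log2 difference, labelled knockout minus wild type on the log2(value + 1) scale, of 34 of the 35 carriers tested: circles with ± SE are values as deposited, orange circles have an adjusted p under 0.05, and open diamonds are the same differences after the GC and length trend was taken out. The 2 orange points, Slc25a1 and Slc25a39, move towards 0 as diamonds.

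Slc25a1, the citrate carrier, lies at chr16:17925223-17928219, minus strand (mm10). Its normalised reads were 100.96, 340.0, 129 and 231 in the wild type against 542, 440.2, 561 and 310.2 in the labelled knockout libraries. Library 2 was the highest of the wild type and stood above library 4 of those labelled knockout, so the groups overlapped. The mean went from 200.02 ± 109 to 463 ± 115 (SD, n = 4), a log2 difference of 1.33 ± 0.35 (SE, adjusted p = 0.0419, limma; exact permutation p = 0.0571, two-sided). The test passed in 2 of the 8 fits that each leave out 1 library, with an adjusted p of 0.00374 without wild type library 2 and 0.0482 without library 4 labelled knockout. In the other 6 it lay between 0.0631 (without wild type library 4) and 0.141 (without library 1 labelled knockout). In sorted bulk cells, a change in the number of cells that express a gene and a change in its RNA per cell cannot be told apart.

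Slc25a39 lies at chr11:102402985-102407946, minus strand, and brings glutathione into the matrix, where it serves iron-sulfur proteins. Its normalised reads were 386, 642, 463 and 407 in the wild type against 860.4, 975, 750.1 and 706 in the labelled knockout libraries. All 4 libraries labelled knockout stood above all 4 wild type ones. The mean went from 475 ± 117 to 823 ± 120.3, a log2 difference of 0.81 ± 0.22 (adjusted p = 0.047, limma; exact permutation p = 0.0286, the smallest that 4 against 4 can give). It passed in 1 of the 8 fits without 1 library, with 0.00841 without wild type library 2, and lay between 0.0680 (without library 4 labelled knockout) and 0.151 (without library 2 labelled knockout) in the other 7. By the edgeR test neither carrier passed, with adjusted p of 0.0738 for Slc25a1 and 0.0653 for Slc25a39, and by DESeq2 both passed, with 0.0195 and 0.0132.

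Both called carriers have GC-rich transcripts, and GC content moved with the comparison over all genes. The longest transcript holds 59.1% GC in Slc25a1 and 59.7% in Slc25a39, above the 49.5% of the median gene. When each library's dependence on GC content and length was taken out, the log2 difference was 0.84 ± 0.35 for Slc25a1 (adjusted p = 0.321, limma). It was 0.30 ± 0.23 for Slc25a39 (adjusted p = 0.623, limma), so neither call held. With wild type library 2 left out as well, Slc25a1 (1.18, adjusted p = 0.0420) and Slc25a5 (0.70, adjusted p = 0.0420) passed in limma and Slc25a39 (0.47, adjusted p = 0.255) did not.

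The carriers that follow by size of p, Slc25a45 and Slc25a46, did not pass the main test. Slc25a45 (chr19:5877808-5885878, plus strand) had 219, 356, 353 and 234 in the wild type against 556, 429, 604 and 468 in the labelled knockout libraries. All values labelled knockout lay above all wild type values, and its log2 difference was 0.84 ± 0.25 (adjusted p = 0.0709, limma). Slc25a46, a protein of the outer membrane that takes part in the shaping of mitochondria, averaged 402 ± 80.1 in wild type libraries and 217 ± 117 in those labelled knockout, with overlapping values and an adjusted p of 0.106 in limma. Its log2 difference was -1.01 ± 0.34, and it was picked out for its p after the values were seen. Without wild type library 2 the limma adjusted p was 0.0262 for Slc25a45 and 0.0416 for Slc25a46. Slc25a45 also passed with DESeq2 (adjusted p = 0.0293) and with limma-voom (0.0436). Slc25a46 passed as lower with limma-voom (0.0283) and not with DESeq2 (0.113). With edgeR TMM neither passed, at adjusted p of 0.0868 for Slc25a45 and 0.177 for Slc25a46. With the GC and length trend removed, Slc25a45 was at 0.55 (adjusted p = 0.388, limma) and Slc25a46 at -0.50 (adjusted p = 0.563, limma).

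**Figure D3:**
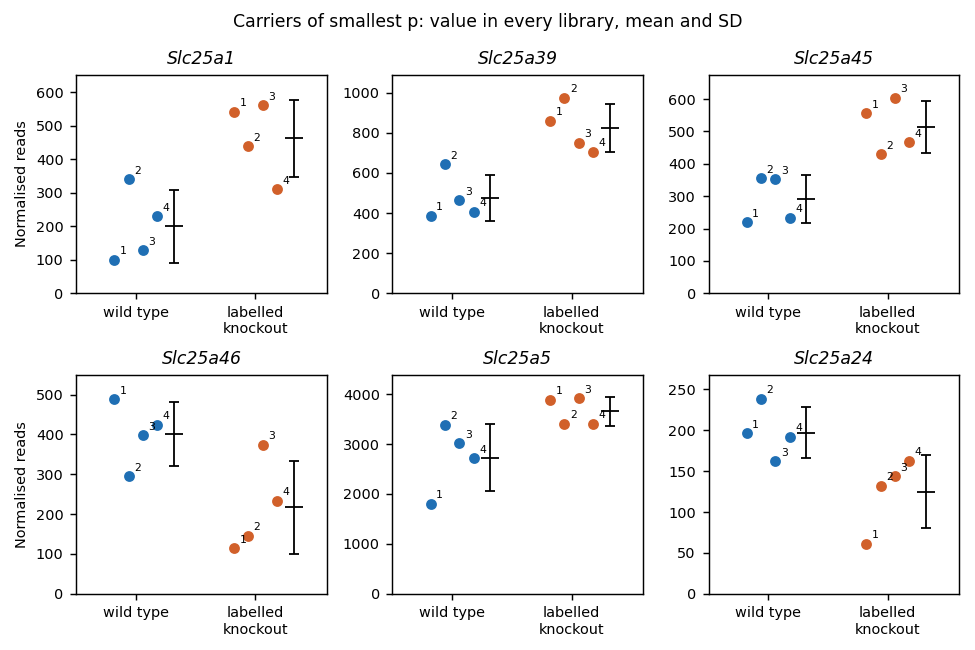
Normalised reads in every library for the 6 carriers of smallest p, 1 panel each with its own axis from 0; points are libraries with their number, and bars are the group mean and SD (n = 4). Values of Slc25a39, Slc25a45 and, only narrowly, Slc25a5 do not overlap between the groups, while wild type library 2 is the highest wild type value of Slc25a1.

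Non-overlap was no more common among carriers than among genes at large. In normalised reads the groups, at 4 values each, were disjoint for 4 of 35 carriers (11.4%), Slc25a5, Slc25a28, Slc25a39 and Slc25a45, against 11.7% of all genes. In all 4 the libraries labelled knockout were the higher ones. The exact permutation p was 0.0286 for each of them, the smallest this design allows.

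The start regions of the 3 carriers of smallest p and of Slc25a5, the most abundant, are shown to set the called carriers, Slc25a1 and Slc25a39, beside others that did not pass. They are the 250 bases upstream of the RefSeq start (GRCm38.p6), 5′ to 3′ on the gene's strand. RefSeq starts are not always those of GENCODE. Capitals mark every match, on either strand, to the GC box (GGGCGG), the CCAAT box (CCAAT), the E-box (CACGTG) or the GATA motif (AGATAA). The windows are chr16:17928220-17928469 (minus strand) for Slc25a1, chr11:102407518-102407767 (minus strand) for Slc25a39, chr19:5877572-5877821 (plus strand) for Slc25a45 and chrX:36795347-36795596 (plus strand) for Slc25a5.
Slc25a1: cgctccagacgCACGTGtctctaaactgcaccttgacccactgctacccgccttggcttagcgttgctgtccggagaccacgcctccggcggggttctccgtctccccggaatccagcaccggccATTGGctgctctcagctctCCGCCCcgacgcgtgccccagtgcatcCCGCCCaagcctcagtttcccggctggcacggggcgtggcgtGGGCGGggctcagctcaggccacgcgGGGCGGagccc
Slc25a39: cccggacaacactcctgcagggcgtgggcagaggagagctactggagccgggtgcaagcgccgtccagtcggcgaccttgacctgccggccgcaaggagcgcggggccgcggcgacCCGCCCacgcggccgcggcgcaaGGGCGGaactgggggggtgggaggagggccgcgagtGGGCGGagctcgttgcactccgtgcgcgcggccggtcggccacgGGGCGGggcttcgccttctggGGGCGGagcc
Slc25a45: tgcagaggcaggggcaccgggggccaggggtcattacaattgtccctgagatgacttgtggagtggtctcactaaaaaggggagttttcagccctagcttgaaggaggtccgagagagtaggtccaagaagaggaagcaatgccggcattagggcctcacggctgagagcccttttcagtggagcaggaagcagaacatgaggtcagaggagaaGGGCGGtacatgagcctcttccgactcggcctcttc
Slc25a5: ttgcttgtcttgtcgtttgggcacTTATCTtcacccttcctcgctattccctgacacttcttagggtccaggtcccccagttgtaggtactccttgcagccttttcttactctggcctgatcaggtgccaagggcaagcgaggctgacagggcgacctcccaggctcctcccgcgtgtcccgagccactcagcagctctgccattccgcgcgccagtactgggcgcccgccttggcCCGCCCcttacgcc

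The windows of Slc25a1 and Slc25a39 are GC-rich, at 70% and 77.2%, with several GC boxes each. Those of Slc25a45 and Slc25a5 hold 56.4% and 61.6% GC. Of the 37 members, 28 had an entry in the promoter table, with 37 windows in all. A GC box was found in 28 of these 37 windows (75.7%), against 32.7% of the 32851 windows of all genes, whose median GC content was 52.4% against 57.6% for the members. The CCAAT box was in 45.9% of member windows and 33.9% of all, and the E-box in 18.9% and 6.02%. The GATA motif was in 5.41% and 9.99%, an ETS motif (CCGGAAG) in 13.5% and 6.91%, and the CRE (TGACGTCA) in 5.41% and 1.55%. A shortened NRF1 motif (GCATGCGC), an ERR motif (AAGGTCA) and an ATF4 motif (TGATGNAA) were in 0 member windows, against 2.26%, 4.08% and 3.45% of all windows. Such matches describe letters and not bound sites.

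Among adenine nucleotide and phosphate carriers, 0 of 9 members passed in either direction, with 5 above 0 and a median log2 difference of 0.11. Slc25a5 (chrX:36795651-36798807, plus strand) had 1801, 3387, 3017 and 2716 in the wild type against 3888, 3406, 3923 and 3407 in the labelled knockout libraries. Library 1 was the lowest wild type value, and the log2 difference was 0.46 ± 0.18 (adjusted p = 0.169, limma). Wild type library 2 lay only narrowly below library 2 labelled knockout. In TPM the groups overlapped, with 1766 in wild type library 2 against 1651 in library 2 labelled knockout. Slc25a5 is X-linked, and its values are to be read beside those of Xist, which moved with the groups. The other X-linked carriers tested, Slc25a14 and Slc25a53, had differences of -0.58 ± 1.03 and -0.74 ± 0.64, and neither passed.

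Slc25a4, which differs from Slc25a5 in few residues, had 1429, 1014, 1265 and 1364 in the wild type against 1191, 981, 1403 and 831 in the labelled knockout libraries. Its difference was -0.22 ± 0.20 (adjusted p = 0.575, limma), opposite in sign to that of Slc25a5 and within the spread. Reads of such close relatives and of their processed pseudogenes may be split between them by the aligner, so both levels are uncertain. Slc25a3 had 3804, 3329, 4455 and 3427 in the wild type against 4047, 4643, 4954 and 4198 in the labelled knockout libraries, with a difference of 0.25 ± 0.15 (adjusted p = 0.36, limma).

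The calcium-regulated carriers of ATP-Mg and phosphate, which set the matrix pool of adenine nucleotides, are Slc25a23, Slc25a24 and Slc25a25. Slc25a24, the most abundant of them, had 196, 238, 163 and 192 in the wild type against 61.2, 132, 144 and 163 in the labelled knockout libraries. Library 1 was the lowest of those labelled knockout and library 4 just exceeded wild type library 3, and the difference was -0.73 ± 0.37 (adjusted p = 0.283, limma). Slc25a23 had 68.9, 65.0, 72.8 and 118 in the wild type against 37.9, 66.1, 103 and 47.2 in the labelled knockout libraries, a difference of -0.41 ± 0.51. For Slc25a25 the fitted difference of 1.93 ± 1.05 (adjusted p = 0.318, limma) rests on the 0 of wild type library 2, and it was 0.65 without that library. The coenzyme A carriers Slc25a16 and Slc25a42 and the peroxisomal Slc25a17 differed by -1.14 ± 0.85, 0.58 ± 1.05 and 0.11 ± 0.40.

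Di- and tricarboxylate, aspartate and glutamate carriers had 1 of 6 members called higher, Slc25a1, and 4 above 0, with a median of 0.37. Slc25a11 had 979.7, 544, 876 and 780.0 in the wild type against 1039.8, 1054, 1060.2 and 769 in the labelled knockout libraries. Wild type library 2 was its lowest value, and the difference of 0.32 ± 0.21 did not pass (adjusted p = 0.422, limma). It shares 189 exon bases with Rnf167 on the opposite strand, and the library kit does not mark strand.

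Slc25a12 and Slc25a13, the calcium-regulated aspartate/glutamate carriers of the malate-aspartate shuttle, leaned opposite ways. Slc25a12 had 282, 295, 294 and 365 in the wild type against 454, 567, 267 and 414 in the labelled knockout libraries, a difference of 0.42 ± 0.27 (adjusted p = 0.405, limma). Slc25a13 had 66.8, 80.8, 56.8 and 58.2 in the wild type against 52.5, 63.6, 23.0 and 72.2 in the labelled knockout libraries, a difference of -0.41 ± 0.55 (adjusted p = 0.724, limma). Values of both overlapped between the groups. Slc25a10, which swaps malate or succinate for phosphate, varied most among the wild type libraries of its role, from 10.6 in library 4 to 263 in library 2. Its difference of 0.60 ± 0.72 was -0.15 without wild type library 4 and -0.12 with edgeR. The glutamate carrier Slc25a22 differed by -0.55 ± 0.61.

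Iron and glutathione carriers had 1 of 4 members called higher, Slc25a39, and 3 above 0, with a median of 0.43. Slc25a28, mitoferrin 2, which brings iron into mitochondria of most cells, had 182, 312, 285 and 344 in the wild type against 360.2, 373, 359 and 419 in the labelled knockout libraries. Wild type library 1 was lowest, and the groups did not overlap, though library 3 of those labelled knockout exceeded wild type library 4 only narrowly; the difference was 0.46 ± 0.26 (adjusted p = 0.347, limma). Slc25a37, mitoferrin 1, which serves heme synthesis in red cell precursors, had 105, 436, 118 and 153 in the wild type against 357, 167, 217 and 195 in the labelled knockout libraries. Wild type library 2 was the highest of all 8, and the difference was 0.40 ± 0.41 (adjusted p = 0.624, limma). Slc25a40, the relative of Slc25a39, had 89.1, 102, 45.9 and 40.8 in the wild type against 43.7, 24.9, 67.1 and 87.0 in the labelled knockout libraries, a difference of -0.35 ± 0.58.

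Erythroid markers were looked at beside these genes, since Slc25a37, Slc25a38 and Slc25a39 serve red cell precursors. Of 16 erythroid markers, 8 were in the table and 6 tested; Klf1, the erythroid transcription factor, rose from 1.83 ± 1.43 to 56.3 ± 26.7 normalised reads (adjusted p = 0.0341, limma), and 0 fell. Klf1 passed in 1 of the 8 fits without 1 library and not with the GC and length trend removed (adjusted p = 0.135). Tfrc, the transferrin receptor, and Hbb-bt, a beta globin, had differences below 0, -0.79 and -0.16, and neither passed. Hba-a1 had 0 reads in 3 libraries and Hbb-bs in 1, and Alas2 was not analysed here. The summed level of the list was 2661 to 4925 in wild type libraries and 4368 to 6294 in those labelled knockout, most of it Car2. Megakaryocyte markers moved as well, with 4 of 12 higher (Itga2b, Gp9, Vwf and Pf4), 0 lower and none at 0 in all libraries. Of the 8 fits without 1 library, Itga2b passed in 8, Gp9 in 6, Vwf in 3 and Pf4 in 1, and with the GC and length trend removed 0 of the 12 passed. Their summed level was 4058 to 5009 in wild type libraries and 4600.0 to 5583 in those labelled knockout. The part of either marker group in the carrier differences was not tested.

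Among carriers of other amino acids, 0 of 3 tested passed. Slc25a38, which brings in glycine for the first step of heme synthesis, had 95.4, 126, 121 and 77.1 in the wild type against 127, 111, 68.9 and 119 in the labelled knockout libraries, a difference of 0.01 ± 0.41. The ornithine carrier Slc25a15 and the branched-chain amino acid carrier Slc25a44 differed by -0.37 ± 0.36 and 0.22 ± 0.46. Slc25a29, a carrier of basic amino acids, was below the filter. Its 4 values labelled knockout, 0, 44.9, 58.3 and 1.85, spanned those of the wild type, 26.5, 0, 0 and 5.29.

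Cofactor and pyrimidine nucleotide carriers had 0 of 6 members called and 3 above 0. Slc25a36, which carries pyrimidine nucleotides for mitochondrial DNA and RNA, had 876, 610.0, 699.9 and 820.1 in the wild type against 679.6, 772, 799.6 and 658 in the labelled knockout libraries. It was among the steadiest members, with a difference of -0.04 ± 0.20, although it became 0.48 with the GC and length trend removed (adjusted p = 0.336, limma). Slc25a33, the other pyrimidine nucleotide carrier, had 49.4, 10.8, 13.0 and 6.80 in the wild type against 8.75, 18.7, 39.8 and 67.6 in the labelled knockout libraries, a wide spread around a difference of 0.76 ± 0.95. The NAD carrier Slc25a51 differed by -0.29 ± 0.22, the S-adenosylmethionine carrier Slc25a26 by 0.92 ± 0.73 and the folate carrier Slc25a32 by -0.20 ± 0.62.

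The remaining carriers did not pass either. Slc25a20, which brings acylcarnitines in for fatty acid oxidation, differed by -0.27 ± 0.37. The uncoupling protein relatives Slc25a14 and Slc25a27 differed by -0.58 ± 1.03 and 0.61 ± 0.55. Of the 4 tested carriers in the outer membrane or without a well-set substrate, only Slc25a45 lay above 0. Over the family 11 members share exon bases with another annotated gene, from 125 bases in Slc25a51 to 1151 in Slc25a35. Reads in such stretches cannot be assigned to 1 gene without strand. For Slc25a51, whose partner Gm25692 lies on the same strand, strand would not settle it either.

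Along the family, differences moved with GC content. Pearson's r between the GC content of the longest transcript and the log2 difference was 0.48 and Spearman's rho 0.53 across the 35 carriers, which share libraries and are not replicates. Over all genes the same values were 0.40 and 0.45. Of the 18 carriers of lower GC content (39.4 to 49.0%), 6 lay above 0, with a median of -0.28. Of the 17 of higher GC content (49.8 to 60.6%), 13 lay above 0, with a median of 0.50. With the trend removed, 20 carriers lay above 0, the family's median was 0.08 beside 0.01 over all genes, and 0 carriers and 31 of all 10889 genes tested passed. What set the trend was not tested.

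**Figure D4:**
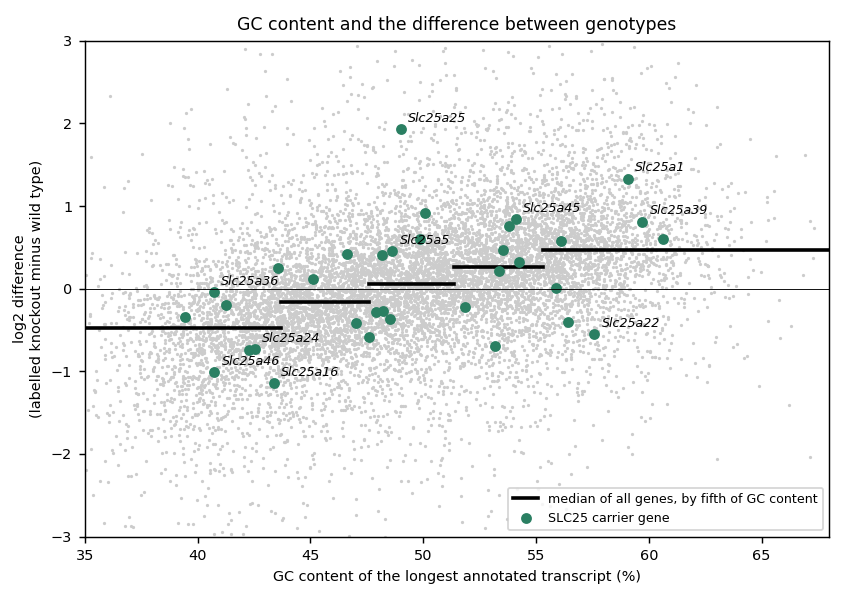
Log2 difference (labelled knockout minus wild type) against the GC content of the longest transcript in percent, for all genes (grey, 108 of 10889 lie outside the axes) and 34 carriers (green); black lines are medians of all genes in 5 equal bins of GC content. The lines climb from -0.48 in the lowest bin to 0.47 in the highest, and Slc25a1 and Slc25a39 sit at the GC-rich end.

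Ratios between related carriers, taken within each library, did not separate the groups. For 7 pairs the log2 ratio of normalised reads (each + 1) overlapped between the groups, and exact permutation p adjusted over the 7 ranged from 0.200 to 0.971. Slc25a5 over Slc25a4 was 0.33, 1.74, 1.25 and 0.99 in the wild type against 1.71, 1.79, 1.48 and 2.03 in the labelled knockout libraries. Wild type library 1 was lowest and library 4 labelled knockout highest (exact permutation p = 0.0857, adjusted 0.200). Slc25a12 over Slc25a13 was 2.06, 1.85, 2.35 and 2.63 in the wild type against 3.09, 3.14, 3.48 and 2.50 in the labelled knockout libraries. The first 3 labelled knockout ratios exceeded every wild type one (exact permutation p = 0.0571, adjusted 0.200).

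Slc25a39 over Slc25a40 was 2.10, 2.64, 3.31 and 3.29 in the wild type against 4.27, 5.23, 3.46 and 3.01 in the labelled knockout libraries (exact permutation p = 0.114, adjusted 0.200). Slc25a24 over Slc25a25 was 2.77, 7.90, 1.69 and 2.74 in the wild type against 0.43, 2.11, 0.90 and 1.02 in the labelled knockout libraries, with the 0 of Slc25a25 in wild type library 2 behind the highest value (exact permutation p = 0.0571, adjusted 0.200). Slc25a37 over Slc25a28 had a mean of -0.68 ± 0.80 in wild type libraries and -0.75 ± 0.53 in those labelled knockout. The means were 5.54 ± 1.07 and 4.74 ± 1.24 for Slc25a36 over Slc25a33, and 1.30 ± 0.50 and 0.98 ± 0.57 for Slc25a24 over Slc25a23.

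**Figure D5:**
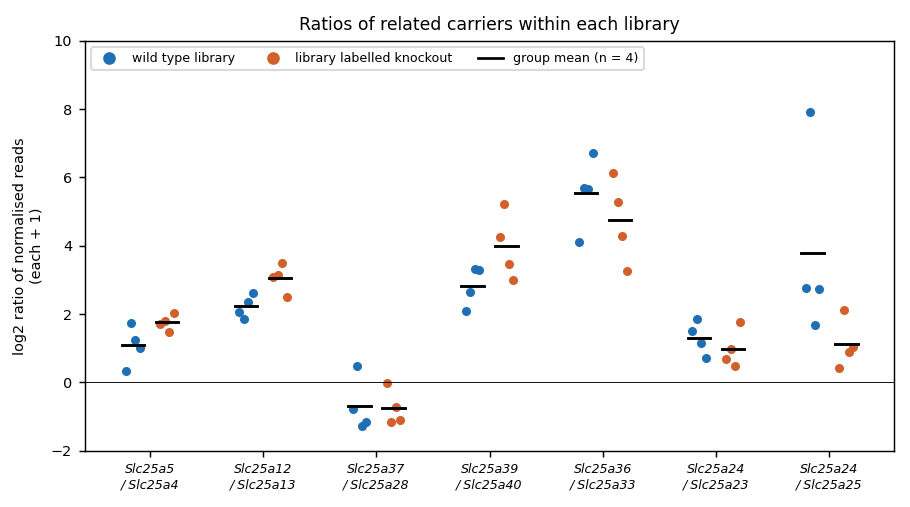
Log2 ratio of normalised reads (each + 1) for 7 pairs of related carriers in every library, with group means as black lines (n = 4). The 4 values of each group overlap for all 7 pairs, and the highest point of Slc25a24 over Slc25a25 is wild type library 2, in which Slc25a25 had 0 reads.

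Calls among genes that work beside the carriers are given list by list, beside 3.8% of all genes called. Of 16 genes of the import path that inserts carriers into the inner membrane (TOM, small TIM and TIM22 subunits), 0 passed and 0 had an unadjusted p under 0.05; the smallest p values belonged to Timm9 (-0.82, adjusted p = 0.292, limma) and Tomm22 (-0.37, adjusted p = 0.392). The list's median log2 difference was 0.02. Of 21 other transport genes of mitochondria tested, 1 was higher and 0 lower, with a median of -0.04. It was Ucp2, an uncoupling protein that belongs to the same protein family under another name. Ucp2 averaged 192 TPM over the 8 libraries and was not among the 37 members ranked by level. Its normalised reads were 485, 1199, 1374 and 927 in the wild type against 2381, 2165, 2387 and 2389 in the labelled knockout libraries, and every library labelled knockout stood above every wild type one. Its log2 difference was 1.33 ± 0.25 (adjusted p = 0.011, limma), and it passed in 8 of the 8 fits without 1 library, but not with the GC and length trend removed (0.91, adjusted p = 0.105).

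The citric acid cycle and the NAD shuttles turn over the molecules these carriers move. Among 30 of their genes 1 was higher and 1 lower, against 1.68% and 2.12% of all genes. Idh2, which makes NADPH in the matrix, rose from 782 ± 85.5 to 1268 ± 214 (log2 0.69, adjusted p = 0.0494, limma). With 1 library left out Idh2 passed in 1 of 8 fits, and with the GC and length trend removed 0 genes of the list passed.

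No gene passed in the other 4 lists. Of 19 heme and iron-sulfur genes 15 lay above 0, with a median of 0.36, led by Ppox (1.14, adjusted p = 0.107, limma) and Lyrm4 (0.88, adjusted p = 0.177). Of 13 folate and amino acid genes 7 lay above 0, with Mat2a at -0.57 and Shmt2 at 0.85. Of 18 carnitine and fatty acid oxidation genes 9 lay above 0, with Etfb at 0.65 and Hadha at 1.05. Of 22 nucleotide and cofactor genes 10 lay above 0, with Nadk2 at -0.82. The numbers with an unadjusted p under 0.05 were 3, 3, 4 and 4 in these lists, against 19.7% of all genes tested.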

How the data were processed

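RNA of sorted HSCs was sequenced as 8 Nextera XT libraries, a kit that does not mark strand, 1 per mouse, per the labels' protocols. The submitters' processing notes name mm10, bcl2fastq, HISAT2, Subread, featureCounts and DESeq2, while settings and versions are not given in the sources used here. Values deposited by the authors are a normalised signal, although the table's name calls them raw counts. In each library 100% of values were whole multiples of 1 step (tolerance 0.001). Each step equals the reciprocal of that library's median-of-ratios size factor. Whole reads were recovered by division. The table has 11855 entries, 1 without a name (0.000401% of the values), and each has reads in at least 3 libraries.

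Because the values are normalised, limma 3.58.1 (eBayes with trend and robust, R 4.3.3) on log2(value + 1) replaced the edgeR test written for raw counts. Tested were genes with values of 10 or more in 4 or more libraries, two-sided, with Benjamini-Hochberg adjustment over all of them and a threshold of 0.05. Differences are labelled knockout minus wild type. For low genes a fold on this scale can be larger or smaller than that of a count model. Slc25a25 was 1.93 here and 1.12 with edgeR TMM, and Slc25a26 was 0.92 and 1.07. The script was tested on simulated data. TPM used the recovered reads and merged exon lengths of GENCODE M21 (mm10), to which 11716 symbols matched, 453 through an older symbol. GC and length trends were removed per library with splines of 5 degrees of freedom, on matched genes alone. Exact permutation tests over 70 assignments used single values. Alternatives were the added value, the filter, the scaling, edgeR 4.0.16, DESeq2 1.42.0, limma-voom, the GC and length trend, a replicate block and leaving out each library.

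The members, the gene lists, the added value and the filter were chosen with earlier results of these data known. Named with a value in every library were the called carriers, those whose groups do not overlap, the 6 highest and 3 lowest by level, and fixed pairs of relatives. The test of pair ratios, the promoters and motifs shown, and the trend removal without wild type library 2 were chosen after the values were seen. Counting error alone is covered by the limit for a count of 0. Some genes counted here, 1 carrier among them, are not reported singly.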

Additional observations from a re-analysis of the deposited data

Results flagged for a closer look

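Dixon's test was run on log2(value + 1), while the values below are normalised reads. Of the 74 sets of 4 values (37 carriers in each group), 4 had 1 library far from the other 3 on that log scale. Chance gives about 1 in 20. Slc25a11 was at 769 normalised reads in library 4 labelled knockout, against 1040 to 1060 in the other 3. Slc25a12 was at 365 in wild type library 4, against 282 to 295 in the others. Slc25a25 was at 0 in wild type library 2, against 27.9 to 49.9. Slc25a42 was at 16.6 in wild type library 4, against 5.91 to 6.98. None of these 4 carriers passed the test between groups.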

How the results depend on the processing

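Called carriers numbered 2 as reported, and also 2 with an added value of 5 or 10, a filter of 50, and TMM or upper quartile scaling. They numbered 0 with no filter, with edgeR (TMM or RLE), with the GC and length trend removed, with the replicate block and with the block plus trend removal, 3 with DESeq2 (Slc25a45 added) and 4 with limma-voom (Slc25a45 and Slc25a46 added). Over all genes the count went from 418 to 764 (DESeq2), 651 (limma-voom), 31 (trend removed), 277 (replicate block), 28 (block with trend removed) and 242 (trend removed without wild type library 2, added after seeing the data). Leaving out each library in turn gave 48 to 883 genes, 0 to 5 carriers and a family median of -0.10 to 0.23, with most calls without wild type library 2. Replicate numbers did not pair the libraries. Each gene's deviations from its group mean were correlated between wild type and labelled knockout libraries. For same-numbered libraries the correlations were -0.01, -0.06, 0.01 and -0.02, and no wild type library correlated best with its own number. Some differences changed sign. Slc25a10, 0.60 as reported, was -0.12 with edgeR TMM, -0.12 with RLE and -0.12 with DESeq2. With the trend removed, with or without the block, Slc25a32 was 0.27, Slc25a36 0.48, Slc25a38 -0.37, Slc25a40 0.26 and Slc25a44 -0.037; without wild type library 2 as well, Slc25a11 was -0.11, Slc25a32 0.50, Slc25a36 0.45, Slc25a38 -0.25, Slc25a40 0.54 and Slc25a42 -0.034. When each library was left out in turn, the lowest and highest values of the carriers whose sign turned were -0.15 and 1.35 for Slc25a10, -0.20 and 0.35 for Slc25a17, -0.53 and 0.17 for Slc25a32, -0.13 and 0.040 for Slc25a36, -0.12 and 0.21 for Slc25a38, and -0.077 and 0.42 for Slc25a44. Their causes were not tested. Depth limits the low carriers most, since 83 to 34483 reads per carrier stand behind these values.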
